A study of Rattus norvegicus with 12 samples.

Results

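The genes described here are 10 transcription factors that cells switch on early after a stimulus, the FOS proteins (Fos, Fosb, Fosl1 and Fosl2), the JUN proteins (Jun, Junb and Jund) and the zinc finger factors Egr1, Egr2 and Egr3. They were taken by symbol, as the rows of these names among the 22850 features of the deposited tables, and all 10 were found. The cells were primary atrial fibroblasts of Sprague-Dawley rats 1 to 3 days old, enriched by their quick attachment to the dish and not sorted. All 12 libraries came from cells that received AngII (angiotensin II, the peptide hormone of the renin-angiotensin system) at 1 μmol/L for 48 h in medium with 2% serum. The AngII group received nothing else. The AngII+HNG group was given HNG, an analogue of the mitochondrial peptide humanin, at 10 μmol/L from 1 h before AngII, and the AngII+MOTS-c group MOTS-c, another peptide encoded in mitochondrial DNA, at 5 μmol/L from 1 h before. Each treatment had 4 libraries of messenger RNA. No group without AngII was analysed here, so the values tell how the peptides compare with AngII alone and not what AngII itself does to these genes.

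AP-1 is a dimer. A JUN protein pairs with a FOS protein or with another JUN protein, the pair binds the AP-1 site of its target genes, and the FOS proteins do not form stable pairs among themselves. The EGR proteins bind GC-rich sites with zinc fingers, and their activity is restrained by the corepressors Nab1 and Nab2. Fos and Egr1 are the textbook immediate early genes: SRF with its TCF partners on the CArG boxes of their promoters turns them on within minutes of MAP kinase signalling, and their messengers are short-lived. In fibroblasts both families are known for the response to growth factors, to angiotensin II and to injury, and for the control of matrix-degrading enzymes. Libraries taken at 48 h do not hold the first minutes and hours of such a response.

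Promoter sequences of 7 of the 10 genes were found in the RefSeq table for the rat build GRCr8, and the 250 bases before each start were searched on both strands. Fos, Jun and Egr3 had no entry. Shown first are the stretches of Egr1 and Egr2 that hold CArG boxes, the sites of SRF, in capitals. They are printed 5′ to 3′ in the direction of transcription and cover 120 to 61 bases before the start, chr18:26736958-26737017 on the plus strand for Egr1 and chr20:21054502-21054561 on the minus strand for Egr2.
Egr1: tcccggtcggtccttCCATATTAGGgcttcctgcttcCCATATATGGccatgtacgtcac
Egr2: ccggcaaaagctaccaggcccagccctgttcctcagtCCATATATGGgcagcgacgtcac
Egr1 held 2 CArG boxes and Egr2 held 1, and the box CCATATATGG lay 83 to 74 bases before the start in both genes. A CArG box was present in 1.501% of all 27457 promoters of the table. Shown next is Jund, with its cyclic AMP response element TGACGTCA at chr16:18769972-18770011 and its EGR sites at chr16:18769787-18769921, both on the minus strand and both in capitals.
Jund, 240 to 201 bases before the start: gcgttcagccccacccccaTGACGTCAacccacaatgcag
Jund, 150 to 16 bases before the start: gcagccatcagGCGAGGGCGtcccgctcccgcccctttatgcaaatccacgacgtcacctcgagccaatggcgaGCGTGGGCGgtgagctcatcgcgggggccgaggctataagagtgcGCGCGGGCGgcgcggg
The letters GCGNGGGCG, in which N is any base, occurred 3 times in Jund and once in Fosl2, and in 4.53% of all promoters. The response element TGACGTCA was found in Jund and in 1.70% of all promoters. The AP-1 letters TGANTCA were not in the windows of these 7 genes and stood in 6.36% of all promoters. Matches of different motifs did not overlap. They are matches of letters, and binding was not measured.

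A library held 27960586 to 38322354 counts on genes, and counts are given below as CPM, counts divided by the library total and scaled by the TMM method of edgeR, whose factors lay between 0.989 and 1.01. A floor of 3 counts equalled 0.0786 to 0.107 CPM, which covers counting error only. The defining markers of fibroblasts were all detected, and the sum of the 10 fibroblast markers was 62830 to 67300 CPM with AngII, 61131 to 69274 with HNG and 63134 to 67120 with MOTS-c. Markers of other cell types were present too. The 10 cardiomyocyte markers summed to 5775 to 7659 CPM over all libraries, with groups that overlapped. The 10 macrophage markers summed to 250.3 to 305 CPM with AngII, 343.6 to 449.8 with HNG and 246.5 to 301.7 with MOTS-c. The 8 endothelial markers summed to 73.1 to 81.7, 91.6 to 101.3 and 76 to 81.5 CPM, and the 8 markers of smooth muscle and pericytes to 6987 to 7301, 5488 to 6059 and 6655 to 7244 CPM. The 6 Schwann cell markers stayed between 12.4 and 15.9 CPM. No marker of these lists was at 0 in a whole group. With HNG against AngII edgeR called 2 of 10 fibroblast, 1 of 10 cardiomyocyte, 4 of 10 macrophage and 3 of 8 endothelial markers higher, 5 of 8 smooth muscle and pericyte markers lower and 0 of 5 tested Schwann cell markers (1 unadjusted), where it called 5.98% of all genes, and 20.3% without adjustment. MOTS-c against AngII called 0 in each list (1, 1, 0, 0, 4 and 1 unadjusted, in the same order), where it called 0.0069% of all genes, and 5.05% without adjustment. A few genes carried these sums, and they are named here after their values were seen. Lyz2 made up much of the macrophage sum, with means of 102 CPM with AngII and 172 with HNG, while 3 of the 10 macrophage markers, Adgre1, C1qb and C1qc, had negative log2 fold changes that did not pass. Acta2 (4151 CPM with AngII and 3387 with HNG) and Tagln (2158 and 1726) made up most of the smooth muscle and pericyte sum, and both are also expressed by activated fibroblasts. The macrophage, endothelial and smooth muscle sums of the HNG libraries thus lay outside those of the other libraries, and their part in the differences below was not tested. In such bulk libraries a change in the number of cells of one type and a change in the RNA per cell cannot be told apart. The study's methods call the 4 libraries of a treatment biological replicates. They do not say whether these came from separate cell preparations, and in the names of the libraries replicates 2 and 3 of a treatment share a number. The p-values measure the spread between these libraries, part of which may be technical.

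Levels of different genes were compared in FPKM, which divides the count by gene length and library total. Over the 12 libraries the most abundant of the factors was Junb with a mean of 39.6 FPKM, followed by Jund with 28.7, Egr1 with 20.6, Jun with 14.5 and Fosl2 with 13.8 FPKM. Fos, the founding member of its family, stood at 5.87 FPKM. Egr2 at 1.55, Fosl1 at 1.25, Egr3 at 0.387 and Fosb at 0.302 FPKM were the low members. The order held in 12 of 12 libraries with ranges that did not overlap from Junb to Jund, from Jund to Egr1, from Egr1 to Jun, from Fosl2 to Fos, from Fos to Egr2 and from Fosl1 to Egr3. The other neighbours had overlapping ranges. Jun was above Fosl2 in 8 of 12 libraries, Egr2 above Fosl1 in 9, and Egr3 above Fosb in 9. Junb ranked 1786th and Fosb 13393rd of all 22850 features by mean FPKM.

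**Figure D1:**
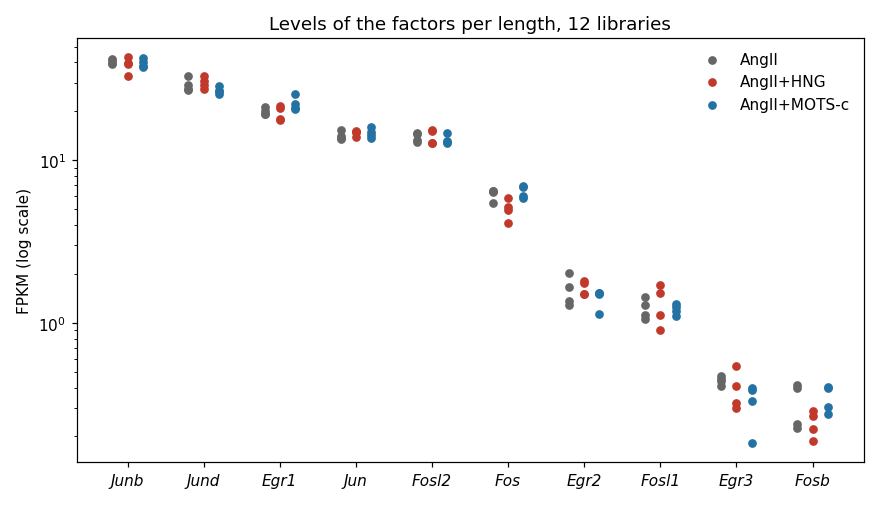
FPKM of each factor on a log axis, with 1 point per library and 4 libraries for each treatment. Junb is highest with 33.2 to 43.1 FPKM, and Fosb is lowest by its mean of 0.302 FPKM. In Fos the HNG points (4.13 to 5.84 FPKM) lie lowest, with 1 of them inside the AngII range.

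Within each family a single gene supplied much of the messenger. Fosl2, a FOS protein without the strong activation domain of Fos, made up 64.2% of the summed FPKM of the FOS family with AngII (range over libraries 62.8% to 65.6%), and Fos made up 28.6% (27.4% to 30%). Junb made up 48.3% of the JUN family with AngII, Jund 34.8% and Jun 16.9%. Egr1 made up 90.8% of the EGR family, Egr2 7.18% and Egr3 2.02%. The sums of the families were not tested between treatments. The FOS sum was 21.6 ± 1.33 FPKM with AngII, 20.6 ± 2.08 with HNG and 21.3 ± 1.21 with MOTS-c (SD, n = 4). The JUN sum was 83.9 ± 3.82, 83.5 ± 6.04 and 81.3 ± 3.53 FPKM, and the EGR sum 22 ± 1.27, 21.7 ± 2.12 and 24.1 ± 2.27 FPKM. The JUN messengers thus exceeded the FOS messengers in sum in each treatment.

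The FPKM values served mainly to compare genes. The ratio of FPKM to CPM should be fixed for a gene of constant length, and across the 12 libraries it varied by a median of 0.517% (coefficient of variation, 13086 genes averaging 1 CPM or more). It varied by 25.7% for Fosb, 17.2% for Egr3 and 7.004% for Fosl2, so the FPKM of these genes carried a term besides the count. For Fos, Jun, Junb, Jund and Egr1 it varied by 0.0840% or less. In Egr3 the 4 MOTS-c libraries (0.182 to 0.395 FPKM) lay below the 4 AngII libraries (0.409 to 0.470 FPKM), whereas in CPM these groups overlapped. The tests between treatments were therefore made on the counts, with limma on FPKM as an alternative.

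The first comparison asks whether HNG changed these factors in cells under AngII. The quasi-likelihood test of edgeR was used with Benjamini-Hochberg adjustment over all 14524 genes tested. None of the 10 factors passed the threshold of 0.05, and 5.98% of all genes did. Without adjustment 1 factor, Fos, had a p below 0.05, against 20.3% of all genes. The HNG and AngII libraries overlapped in each of the 10 factors, and 13.6% of all genes had groups without overlap. A set of 10 genes is too small for counts of 0 to set it apart from these shares. DESeq2 and limma on log2(FPKM + 1) also called 0 of the 10. The median log2 fold change of the 10 was -0.023, and that of all genes tested 0.0043.

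Fos encodes the AP-1 subunit that rises fastest after a stimulus. It was at 10.8, 9.10, 10.8 and 10.8 CPM in the AngII replicates 1 to 4 and at 8.18, 6.84, 8.46 and 9.64 CPM in the AngII+HNG replicates. All 4 HNG libraries were below the AngII mean, and only HNG replicate 4 was above the lowest AngII library. The fitted log2 fold change was -0.32 (SE 0.108, 95% interval -0.56 to -0.089, adjusted p = 0.107 by edgeR's quasi-likelihood test), so the difference did not pass the test. Raw counts of Fos were 319 to 412 with AngII and 230 to 343 with HNG. Without HNG replicate 2, the lowest library, the log2 fold change was -0.24 (adjusted p = 0.228 by edgeR's quasi-likelihood test), and over the 18 alternatives the adjusted p ran from 0.0455 to 0.245, with a negative log2 fold change in 18 of 18 and a call in 1. With replicates 2 and 3 summed to 1 library the adjusted p was 0.143.

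The other FOS genes gave wide or centred intervals. Fosl2 was at 71.2, 68.8, 70.5 and 67.6 CPM with AngII and at 69.2, 68.3, 65.3 and 73.9 CPM with HNG. These values overlapped throughout, and the log2 fold change was -0.0053 with a 95% interval of -0.10 to 0.092. Fosb, a subunit named for its likeness to Fos, was at 1.16, 0.827, 0.790 and 1.17 CPM with AngII and at 0.782, 0.315, 0.907 and 0.956 CPM with HNG. The lowest of these rested on 12 counts, in HNG replicate 2, and the log2 fold change was -0.43 with an interval of -1.10 to 0.24. As in Fos, all 4 HNG libraries were below the AngII mean, here 0.987 CPM. The log2 fold change of Fosb was negative in 18 of 18 alternatives, with a call in 0. Fosl1, a FOS protein often raised in migrating and transformed cells, was at 1.85 to 2.52 CPM with AngII and 1.57 to 2.96 with HNG, with a log2 fold change of 0.077. None of these 3 genes passed the test (adjusted p = 0.964, 0.490 and 0.887 by edgeR's quasi-likelihood test).

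Among the JUN genes, Jun, the strong activator, was at 44.0, 49.7, 44.5 and 46.5 CPM with AngII and 44.8, 48.3, 47.5 and 48.3 CPM with HNG. Junb, a weaker activator that can oppose Jun, was at 74.2, 73.3, 77.3 and 79.8 CPM with AngII and 61.8, 73.5, 79.6 and 72.1 CPM with HNG. Jund, the member with the steadiest expression in resting cells, was at 48.0, 51.5, 48.7 and 58.3 CPM with AngII and 47.9, 53.8, 50.4 and 57.4 CPM with HNG. The groups overlapped for all 3 genes, and in Jund replicate 4 was the highest library of both groups. The log2 fold changes were 0.036 for Jun, -0.082 for Junb and 0.025 for Jund. Their adjusted p were 0.764, 0.544 and 0.899 by edgeR's quasi-likelihood test.

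Egr1, the main EGR factor of these cells, was at 30.8, 32.2, 34.1 and 31.2 CPM with AngII and at 28.8, 33.5, 34.3 and 27.98 CPM with HNG. The highest and the lowest of these 8 libraries were both HNG libraries, and the log2 fold change was -0.040 with a 95% interval of -0.19 to 0.11. Egr2, a factor known from Schwann cell myelination and from fibrosis, was at 4.36, 5.31, 6.41 and 4.08 CPM with AngII and 5.58, 4.75, 5.56 and 4.75 CPM with HNG. Egr3, a close relative that Egr1 can induce, was at 1.65, 1.26, 1.46 and 1.73 CPM with AngII and 1.28, 1.76, 1.148 and 1.18 CPM with HNG. The log2 fold changes of Egr2 and Egr3 were 0.037 and -0.18, and the groups overlapped in both.

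How small a change these libraries could have missed differs between the genes. For the 5 abundant factors Fosl2, Jun, Junb, Jund and Egr1 the 95% intervals for HNG against AngII lay within 0.856 to 1.13 on the scale of fold change. For the low factors they were wider, at 0.466 to 1.18 for Fosb, 0.783 to 1.42 for Fosl1, 0.827 to 1.27 for Egr2 and 0.660 to 1.18 for Egr3. Replicates of 1 treatment varied by 3.95% for Fosl2, 10.5% for Fos and 28.1% for Fosb, where counting error alone would give 2.05%, 5.52% and 18.4%.

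**Figure D2:**
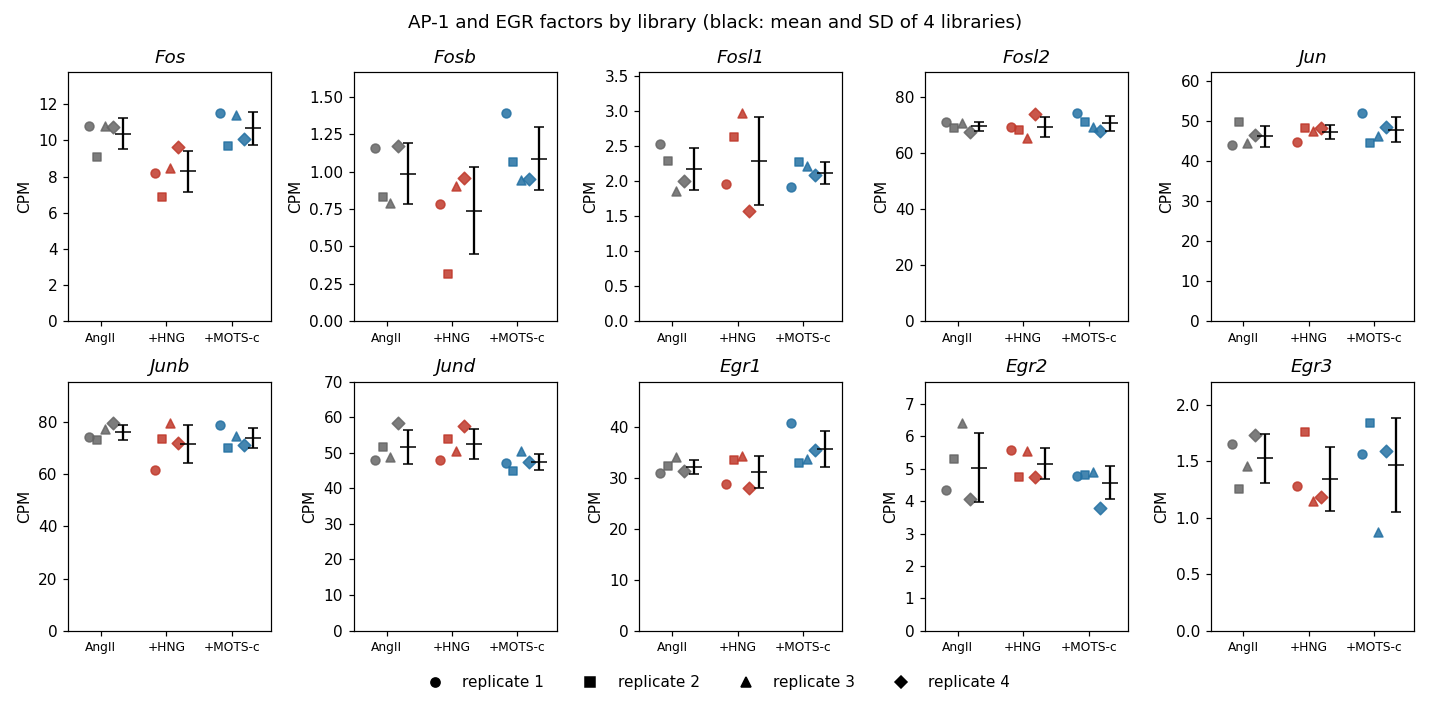
CPM of each of the 10 factors in each library, with 1 marker shape per replicate number and the mean and SD of 4 libraries in black. In Fos the HNG libraries (6.84 to 9.64 CPM) all lie under the MOTS-c libraries (9.70 to 11.5 CPM), while in the other 9 factors the treatments overlap.

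The second comparison asks the same of MOTS-c. None of the 10 factors was called, and 0.0069% of all 14488 genes tested was, which is 1 gene. Without adjustment 1 factor, Egr1, had a p below 0.05, against 5.05% of all genes, and DESeq2 and limma on log2(FPKM + 1) called 0 of the 10. The groups overlapped in each of the 10 factors, while they did not overlap in 3.44% of all genes. The median log2 fold change of the 10 was -0.0057, with 5 positive and 5 negative, and that of all genes was -0.00076.

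Egr1 was at 40.7, 32.8, 33.6 and 35.5 CPM in the AngII+MOTS-c replicates, against 30.8 to 34.1 CPM with AngII. All 4 MOTS-c libraries were above the AngII mean of 32.1 ± 1.44 CPM (SD, n = 4), but 2 of them lay within the AngII range. The log2 fold change was 0.15 (SE 0.0650, 95% interval 0.013 to 0.29, adjusted p = 0.924 by edgeR's quasi-likelihood test). Without MOTS-c replicate 1, the highest library, it was 0.083. Jund was at 47.0, 44.98, 50.5 and 47.3 CPM with MOTS-c, all below the AngII mean of 51.6 ± 4.71 CPM. Its log2 fold change was -0.12 (adjusted p = 0.924 by edgeR's quasi-likelihood test), and -0.059 without AngII replicate 4, the highest AngII library.

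Fos, the factor with the lowest p under HNG, was at 11.5, 9.70, 11.4 and 10.1 CPM with MOTS-c. These values overlapped with the AngII range of 9.10 to 10.8 CPM, and the log2 fold change was 0.039 with a 95% interval of -0.14 to 0.22. Fosl2 was at 74.1, 70.9, 69.3 and 67.9 CPM, Jun at 51.9, 44.6, 46.3 and 48.4 CPM and Junb at 78.9, 70.3, 74.8 and 71.5 CPM. The fitted log2 fold changes of these abundant genes were 0.022, 0.051 and -0.043. Among the low factors Egr2 was at 3.80 to 4.91 CPM, Fosl1 at 1.91 to 2.26, Egr3 at 0.876 to 1.84 and Fosb at 0.946 to 1.39 CPM with MOTS-c. All of these overlapped with AngII. The 95% intervals of the 5 abundant factors lay within 0.840 to 1.23 on the scale of fold change, and the widest of the low factors was that of Fosb, at 0.788 to 1.54.

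**Figure D3:**
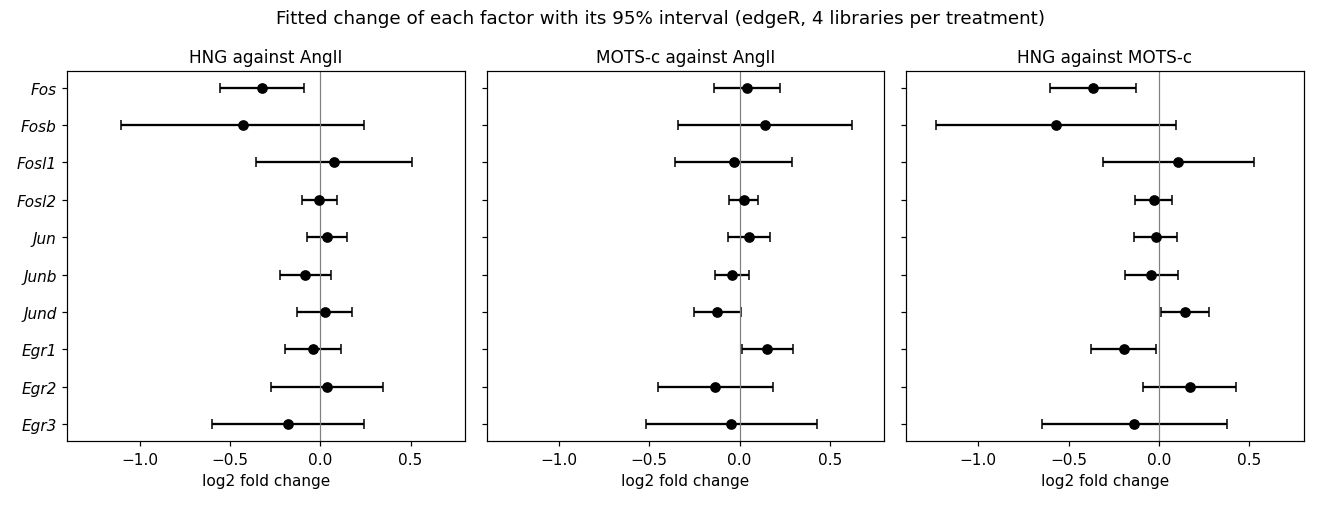
Fitted log2 fold change of each factor (point) with its 95% interval (bar) from edgeR in the 3 comparisons of 4 libraries against 4. The interval of Fos lies below 0 against both other groups, but the adjusted p are 0.107 and 0.0825. Fosb has the widest interval in each of the 3 comparisons.

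The libraries of the peptides can also be compared with each other, which does not involve the AngII libraries. None of the 10 factors passed the test, in which 4.41% of all 14448 genes did. Without adjustment 3 factors, Fos, Jund and Egr1, had a p below 0.05, against 19.3% of all genes. Groups without overlap were seen in 1 of the 10, Fos, and in 12.5% of all genes. DESeq2 called Fos, limma on log2(FPKM + 1) called 0 of the 10, and the median log2 fold change of the 10 was -0.036 against 0.0023 for all genes.

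In Fos the highest HNG library, at 9.64 CPM, lay just under the lowest MOTS-c library, at 9.70 CPM. The means were 8.28 ± 1.15 and 10.7 ± 0.914 CPM (SD, n = 4). The log2 fold change of HNG against MOTS-c was -0.37 (SE 0.109, 95% interval -0.60 to -0.13, adjusted p = 0.0825 by edgeR's quasi-likelihood test). The adjusted p was 0.0301 with DESeq2, 0.0450 with all 12 libraries in 1 fit and 0.0483 without HNG replicate 4. Over the 18 alternatives it ran from 0.0301 to 0.222, with a negative log2 fold change in 18 of 18 and a call in 4. Whether Fos was called between the peptides thus depended on the model and on the libraries used.

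Egr1 and Jund had fitted changes of opposite sign in this comparison and did not pass. Egr1 had a log2 fold change of -0.20 (95% interval -0.38 to -0.016, adjusted p = 0.221 by edgeR's quasi-likelihood test), and Jund one of 0.14 (0.013 to 0.27, adjusted p = 0.215). The HNG and MOTS-c libraries overlapped in both genes. Fosb gave -0.57 with an interval of -1.23 to 0.092, and a negative value in 18 of 18 alternatives with a call in 0. For the 5 abundant factors the 95% intervals lay within 0.770 to 1.21 on the scale of fold change.

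The balance within the FOS family was also read as the ratio of Fos to Fosl2 counts, a measure picked after the values had been seen and therefore given without a test. Fos CPM were 15.2%, 13.2%, 15.3% and 15.9% of Fosl2 CPM in the AngII libraries, 11.8%, 10.02%, 12.96% and 13.04% in the HNG libraries and 15.5%, 13.7%, 16.4% and 14.8% in the MOTS-c libraries. The HNG libraries were below all others. This ratio of CPM is not per length, and its size says nothing of which gene has more messengers.

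The genes that act with these factors were also read. Of 20 AP-1 partners, the ATF, BATF, MAF and CREB proteins that can pair with FOS or JUN proteins or bind related sites, 18 were tested in each comparison and 0 were called in any (2, 1 and 0 with an unadjusted p below 0.05 for HNG against AngII, MOTS-c against AngII and HNG against MOTS-c, by edgeR). In these comparisons 5.98%, 0.0069% and 4.41% of all genes were called, and 20.3%, 5.05% and 19.3% had an unadjusted p below 0.05. Of 6 EGR partners, which include Egr4, the corepressors Nab1 and Nab2 and the factors Wt1, Sp1 and Sp3 of similar sites, 5 were tested and 0 were called in any (1, 0 and 0 unadjusted). The regulators upstream of the early genes, that is SRF, its TCF partners, MAP kinases and angiotensin receptors, gave 1 gene higher and 1 lower of 30 tested with HNG against AngII, that is 6.67% called, near the 5.98% of all genes. SRF itself (Srf), the factor of the CArG boxes shown above, fell from 93.8 ± 3.53 to 82.8 ± 3.41 CPM (log2 fold change -0.18, SE 0.0443, adjusted p = 0.0334 by edgeR's quasi-likelihood test). Mapk3, which encodes the kinase ERK1, rose from 104 ± 1.95 to 114 ± 1.89 CPM (0.13, SE 0.0353, adjusted p = 0.0457). The call on Srf held in 10 of 18 alternatives and that on Mapk3 in 7 of 18. MOTS-c against AngII called 0 of 31 upstream genes (4 unadjusted), and so did HNG against MOTS-c (4 unadjusted).

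Of 48 other immediate early genes tested, 1 rose and 5 fell with HNG against AngII and the others did not pass. This is 12.5% called, beside 5.98% of all genes, and the difference between this list and the 10 factors was not tested. The list was chosen with earlier results of these data known, so its shares here and below are no test of the early genes. For MOTS-c 0 were called (1 unadjusted). The median log2 fold change of the 48 was -0.020 with HNG. Dusp1, a phosphatase that switches off MAP kinases, fell from 83.9 ± 5.43 to 64.3 ± 2.03 CPM (log2 fold change -0.38, adjusted p = 0.00102 by edgeR's quasi-likelihood test). Ccn1 and Ccn2, matrix proteins induced by growth factors and by YAP, fell from 398 ± 25.2 to 310 ± 15.8 CPM (-0.36) and from 2680 ± 163 to 2164 ± 124 CPM (-0.31). Ier3, a survival gene, fell by 0.30 and Plk2, a kinase, by 0.21 on the log2 scale, the latter named here to complete the 5. Klf4, a zinc finger factor of differentiation, rose from 94.8 ± 5.80 to 122 ± 3.49 CPM (0.37). In each of these genes the 4 HNG libraries did not overlap with the 4 AngII libraries, and each of the 6 calls held in 18 of 18 alternatives. In the same HNG libraries the markers of smooth muscle and pericytes were lower in sum, mostly through Acta2 and Tagln, and their part in these changes was not tested. Against MOTS-c 1 of 48 rose and 6 fell with HNG, that is 14.6% called, beside 4.41% of all genes. Klf4 was higher by 0.47 on the log2 scale, and Gadd45b, a stress sensor, was lower at 33.4 ± 2.54 against 43.0 ± 2.83 CPM (-0.37, adjusted p = 0.00725 by edgeR's quasi-likelihood test), with Ccn1 (-0.36), Ier3 (-0.32) and Dusp1 (-0.29) among the others. The call on Dusp1 in this comparison held in 14 of 18 alternatives.

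Among 34 tested genes that AP-1 or EGR factors are known to control in some cells, 5 rose and 6 fell with HNG against AngII. That is 32.4% called, beside 5.98% of all genes. The list was chosen with earlier results of these data known, so its shares here and below are no test of the target genes. Spp1, the matrix protein osteopontin, rose from 240 ± 43.9 to 399 ± 61.4 CPM (log2 fold change 0.74, SE 0.1199), Ccnd1, the cyclin of the G1 phase, from 125 ± 9.94 to 183 ± 14.4 CPM (0.56) and Mmp12, a metalloprotease of macrophages, from 72.1 ± 5.25 to 99.7 ± 8.93 CPM (0.47). Ccl2, a chemokine that attracts monocytes, fell from 52.3 ± 8.92 to 31.6 ± 9.42 CPM (-0.72, adjusted p = 0.0387 by edgeR's quasi-likelihood test). The call on Ccl2 held in 10 of 18 alternatives, and those on Spp1, Ccnd1 and Mmp12 in 18 of 18. Such genes answer to many other factors, and Mmp12 and Spp1 are also high in macrophages, whose markers were higher in sum in the HNG libraries, mostly through Lyz2, and their part in these changes was not tested. Against MOTS-c 4 of 34 rose and 2 fell with HNG, that is 17.6% called, beside 4.41% of all genes, among them Spp1 (0.78), Ccnd1 (0.68), Mmp12 (0.41), Hmox1, the heme-degrading enzyme (0.32), and Hbegf, a growth factor (-0.27). MOTS-c against AngII called 0 of 34 (3 unadjusted).

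**Figure D4:**
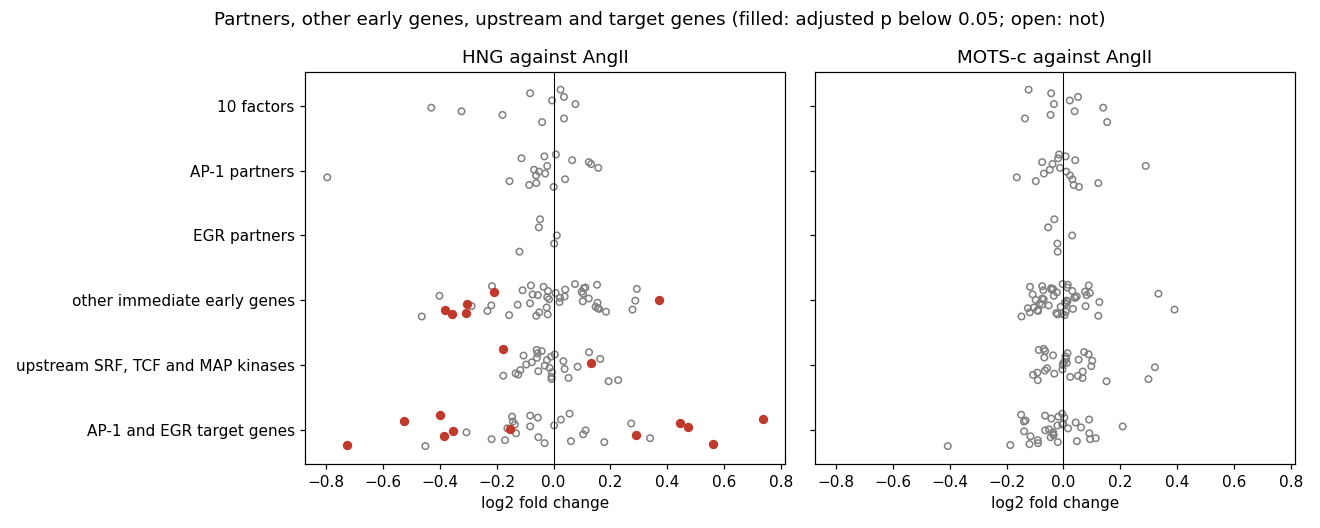
Log2 fold change of the tested genes of each list, 1 point per gene, against AngII for HNG (left) and MOTS-c (right) on the same horizontal scale. Filled points passed an adjusted p of 0.05 in edgeR. With HNG they lie in the other immediate early genes (6), the upstream genes (2) and the target genes (11), and none of the 10 factors or their partners is filled.

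Whether the factors varied together from library to library was read over the 12 libraries for the 9 factors that averaged 1 CPM or more, which leaves out Fosb. Of 36 pairs, 17 had a positive and 19 a negative Pearson's r of log2 CPM, with a median of -0.027. After Benjamini-Hochberg adjustment of a two-sided permutation test with 100000 resamples 0 pairs passed 0.05, and 1 did before it. That pair was Fosl1 and Fosl2, with r = -0.66 and Spearman's rho = -0.49 (permutation p = 0.0197, adjusted 0.711), and r = -0.21 without the 2 libraries farthest from the median of Fosl1. Leaving out these libraries narrows the range of Fosl1, which can itself weaken r, so the drop cannot show what the relation rested on. Within treatments r was -0.66. Of these 36 pairs, Junb and Egr1 had the highest positive r, 0.53 (rho 0.38, permutation test, adjusted p = 0.950), which was 0.65 within treatments. Pairs with Fosb were not tested, so these counts do not cover them. Fosb and Fos shared their lowest library, HNG replicate 2 (0.315 CPM on 12 counts, and 6.84 CPM). They also shared their highest, MOTS-c replicate 1 (1.39 and 11.5 CPM). Fos and Egr1, the 2 textbook immediate early genes, gave r = 0.28 over all libraries and -0.16 within treatments (permutation test, adjusted p = 0.964).

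**Figure D5:**
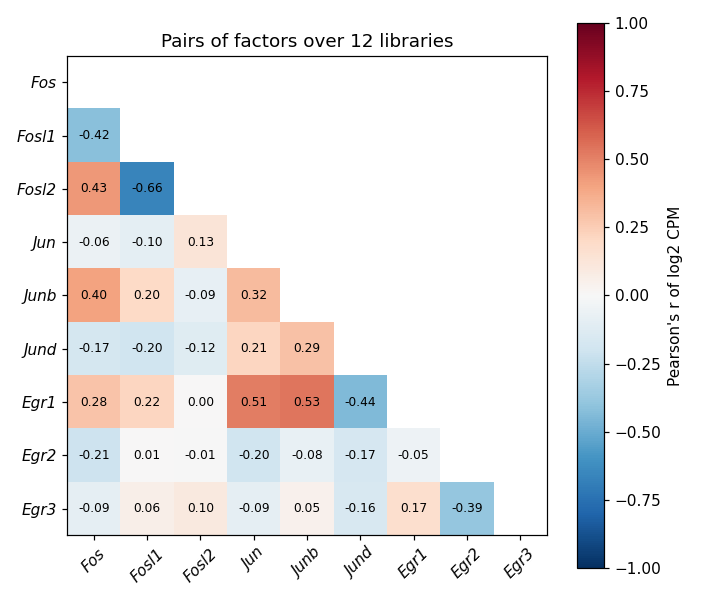
Pearson's r of log2 CPM over 12 libraries for each pair of the 9 factors that averaged 1 CPM or more, from blue (-1) to red (1). The values run from -0.66 for Fosl1 with Fosl2 to 0.53 for Junb with Egr1, and no pair passed the adjusted test.

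The genes whose pattern over the 12 libraries was most like that of Fos, Jun and Egr1 were taken from 12371 genes that averaged 1 CPM or more and had a symbol other than a LOC placeholder or an assembled transcript, by Pearson's r of log2 CPM, which is a description of libraries that share treatment and depth. For Fos they were Maged2 (r = 0.94), Rgs4 (0.92), Colec10 (0.92), Tgm2 (0.90) and Ano4 (0.90). Rgs4 shortens signals of G protein-coupled receptors, and Tgm2 is a transglutaminase that crosslinks matrix. Because these genes were picked for their likeness to Fos over the same libraries, their differences between treatments were not read as results. None of these is another AP-1 or EGR factor, but Fosb averaged 0.938 CPM and was therefore not ranked. Of the factors ranked, Fosl2 stood 1999th, Junb 2255th and Egr1 3344th in likeness to Fos. For Jun the closest were Tube1 (0.86), Aifm2 (0.85), Rpusd1 (0.83), Commd2 (0.83) and Ggh (0.78). For Egr1 they were Cachd1 (0.87), Hnrnpul2 (0.87), Map2k6 (0.85), Kctd5 (0.85) and Mrps22 (0.84), while Junb ranked 528th and Jun 648th.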

How the data were processed

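Messenger RNA of 12 libraries, 4 for each of the 3 treatments, was sequenced in paired ends. The authors deposited 2 tables over the same features and libraries, 1 of raw read counts in whole numbers and 1 of FPKM values. The submitters' processing notes name HISAT2, Picard 1.41 and SAMtools 0.1.18. The genome build, annotation, counting tool and use of strand are not given in the sources used here, so reads of overlapping genes could not be assigned to a strand.

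Each comparison was fitted on its 8 libraries in R 4.3.3 with edgeR 4.0.16 (filterByExpr, TMM, glmQLFit, glmQLFTest, Benjamini-Hochberg over all genes tested, threshold 0.05). All 10 factors passed the filter in each comparison. Standard errors were derived from the F statistic, and log2 CPM used a prior count of 2. The computation was tested on simulated counts. Alternatives were DESeq2 1.42.0, limma 3.58.1 on log2 of FPKM plus 1 or 0.1, RLE size factors, other low-count filters, all 12 libraries in 1 fit, 2 blocks, the sum of replicates 2 and 3, and the omission of each library.

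The factors and the lists of partners, early, upstream, target and marker genes were chosen with earlier results of these data known. Shares of calls in these lists beside those of all genes are therefore no test of the lists. Atf3 and Maff are in the lists of partners and of early genes, and Nab2 in those of EGR partners and of targets. Of each list, at most the 5 called genes with the largest changes and a mean of at least 1 CPM were named, and for Fos, Jun and Egr1 the 5 genes most like each. A target gene that this rule selects is not reported here. The comparisons with AngII share the same 4 AngII libraries.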

Additional observations from a re-analysis of the deposited data

Results flagged for a closer look

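In 30 sets of 4 libraries (10 factors in 3 treatments), 2 had a library far from its group by Dixon's test at 95%, which chance does in about 1 of 20 sets. Fos in AngII replicate 2 was at 9.10 CPM, with the other AngII libraries at 10.8 to 10.8 CPM (gap over range 0.970). Without that library the log2 fold change of Fos was -0.38 for HNG against AngII (adjusted p = 0.0964 by edgeR's quasi-likelihood test) and -0.019 for MOTS-c against AngII. Egr2 in AngII+MOTS-c replicate 4 was at 3.80 CPM, with the other MOTS-c libraries at 4.78 to 4.91 CPM (0.885).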

How the results depend on the processing

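Of 540 values of the 10 factors under the alternatives, 535 stayed on the same side of the threshold, and the other 5 were calls of Fos that the reported fit did not make. Among the 535, 38 had the opposite sign with no call in either fit. HNG against AngII called 1 factor, Fos, with the replicate block (adjusted p = 0.0455 by edgeR), and 0 when any 1 library was left out. HNG against MOTS-c called 1, Fos, with DESeq2, with all 12 libraries in 1 fit and with the replicate block (0.0378), and 0 to 1 when 1 library was left out, the call being that without AngII+HNG replicate 4. MOTS-c against AngII called 0 factors in each alternative, and 0 of the 36 pairs of factors without Fosb passed in each. Among all genes, HNG against AngII called 869 in the reported fit, 577 with replicates 2 and 3 summed and 431 to 932 without 1 library, with 431 to 512 without AngII replicate 1, 2 or 3. MOTS-c against AngII called 1, 3 with DESeq2, 2 with the replicate block, 0 with all 12 libraries in 1 fit or with replicates 2 and 3 summed, and 0 to 3 without 1 library, the 3 without AngII+MOTS-c replicate 1. HNG against MOTS-c called 637, 1019 with DESeq2, 975 with all 12 libraries, 1054 with the replicate block and 322 to 625 without 1 library, with 416 without AngII+HNG replicate 2 and 322 to 389 without AngII+MOTS-c replicate 1, 2 or 3. The replicate numbers are shared by the treatments, but not every library correlated best with its own number (correlations of -0.0755 to 0.212). The causes of these changes were not tested. Fosb and Egr3 rest on 12 to 69 counts per library, which limits their precision.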
